A study of Drosophila melanogaster with 25 samples.

Results

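The genes described here are 138 protein-coding genes of the Drosophila melanogaster X chromosome whose RNA was lower in the brains of control males than of control females. They were chosen by the difference between the sexes in the control libraries and by a minimum level over all libraries. A member had a mean log2(RPKM + 1) in male controls that was lower than in female controls by at least 0.25, and it reached 1 RPKM in at least 5 of all 25 libraries. RPKM is a read count divided by the length of the gene in kilobases and by the size of the library. Of 2020 protein-coding X-linked genes in the table, 1261 reached that minimum, and the members were 10.94% of these and 138 of the 7985 genes of all chromosomes that were tested. Sxl, Yp1, Yp2 and Yp3 also passed the threshold and were left out by name. Another 7 X-linked genes passed the threshold but not the minimum.

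The libraries came from brains in 4 groups, males after long-term photodynamic exposure (PDE, n = 6), females after PDE (n = 7), untreated control males (n = 7) and untreated control females (n = 5). The sample names write PDT for the treatment that the study's design calls PDE, and they were taken to mean 1 treatment. In a photodynamic exposure light excites a compound that then passes its energy to oxygen and makes it reactive. The study asked how such an exposure alters the response to oxidative stress, and the sources used here give neither the compound, the light and the duration nor the strain and age of the flies. They also do not state if each library stands for its own fly or for pooled flies, so that p-values measure the spread between these libraries.

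A male fly carries a single X chromosome and a female carries a pair. In males the MSL complex, which holds the proteins MSL1, MSL2, MSL3, MLE and MOF and the roX RNAs, binds along the X and raises its transcription, so that most X-linked genes reach a similar RNA level in both sexes. In females the RNA-binding protein Sex-lethal (Sxl) blocks the translation of msl-2 and the complex does not form. Genes for which this compensation is incomplete, and genes under other sex-dependent control, are known to have more RNA in females.

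Library totals, recovered from the steps between low RPKM values, had medians of 26.55 M reads in male PDE, 26.16 M in female PDE, 31.71 M in male control and 23.42 M in female control libraries, with a lowest total of 8.88 M and a highest of 58.73 M. The sex labels were checked with the RNAs of the compensation machinery. The male-specific RNA roX1 averaged 2001 ± 111 RPKM in male PDE and 13.95 ± 1.93 RPKM in female PDE libraries (SD, n = 6 and 7), and roX2 averaged 158 ± 21.1 RPKM in male PDE and 1.34 ± 0.461 RPKM in female PDE libraries. Neuronal marker genes were abundant, with summed levels of 9 genes such as nSyb, Syt1 and Gad1 between 636.6 and 684.2 RPKM in male PDE and between 620.6 and 681.2 RPKM in female PDE libraries. The neuronal gene elav, however, was listed at a mean of 0.00987 RPKM in male PDE and 0.0153 RPKM in female PDE libraries, and the glial gene moody at 0 in every library.

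After PDE, in libraries that entered the choice of members through the minimum level but not through the difference, the members were again lower in males. Of the 138 members, 137 had a negative male minus female difference and 85 (61.6%) were called lower in males with limma (Benjamini-Hochberg adjusted p under 0.05 over all 7985 genes, n = 6 male and 7 female libraries), against 3.27% of all genes tested. None was called higher, and 115 (83.3%) were lower at an unadjusted p under 0.05, against 10.1% of all genes. The median difference was -0.31 on the log2(RPKM + 1) scale, with quartiles of -0.42 and -0.25 and a range from -1.27 to 0.11, beside a median of -0.01 over all genes tested. In the controls, which chose the members, the median was -0.33 and 93 members were called, against 3.17% of all genes, a count that the choice itself fixes.

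The minimum level used libraries of both sexes and both treatments, so a gene could enter through its female libraries. For 9 members fewer than 5 male libraries reached 1 RPKM, and for 3 of them (CG15308, CG15459 and CG33223) no male library did. The other 129 members had a median difference of -0.31 after PDE, and 81 of them were called. When the minimum was asked of the control libraries alone, 131 members passed it, and 83 of these were called after PDE.

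**Figure D1:**
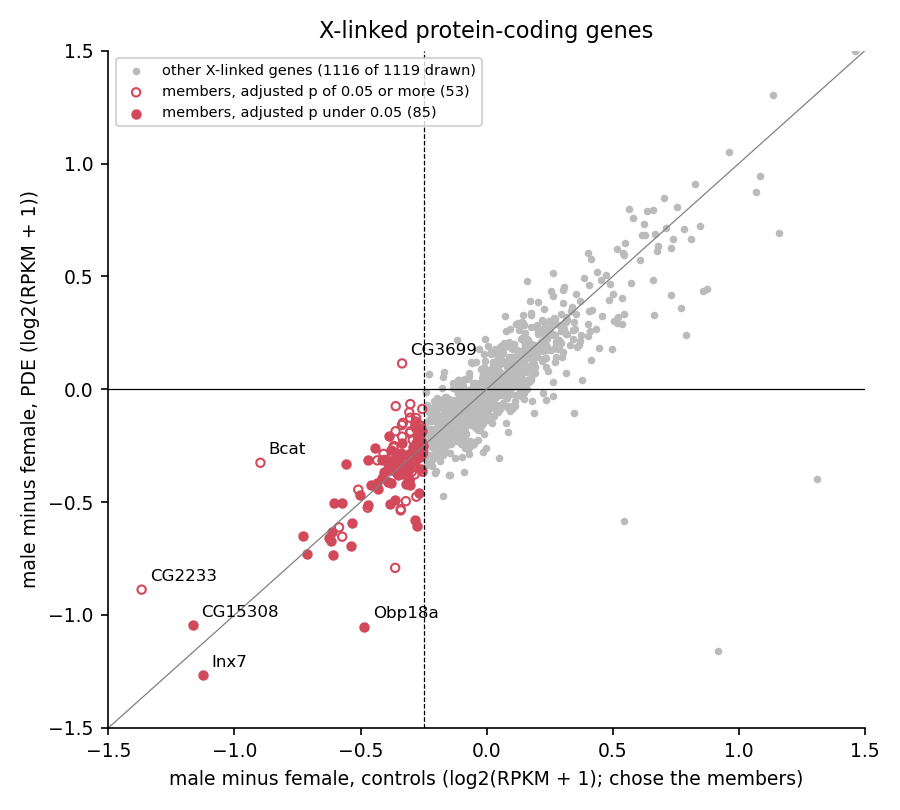
Male minus female difference in mean log2(RPKM + 1) in control libraries (x axis, the values that chose the members) and in PDE libraries (y axis) for X-linked protein-coding genes, with members in red, filled where the PDE difference had an adjusted p under 0.05, and other X-linked genes in grey. The dashed line marks the threshold of -0.25 and the diagonal marks equal differences. All members except CG3699 lie below 0 on the y axis, most of them near -0.3.

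The size of the difference was narrowly distributed. The ratio of the mean RPKM of male to female PDE libraries had a median of 0.775 over the members, with quartiles of 0.709 and 0.82. For 99 members this ratio lay between 0.7 and 0.9, against 953 of all 7985 genes tested and 247 of the 1119 other X-linked genes. For 20 members it was under 0.6, against 101 of all genes tested and 3 of the other X-linked genes. Among other X-linked genes the median ratio was 0.97 and among autosomal genes 1. In the controls the members had a median ratio of 0.761.

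Taken library by library, the members separated the sexes. With each gene set relative to its mean over all libraries, the median over members ran from -0.19 to -0.10 in male PDE and from 0.11 to 0.24 in female PDE libraries. It ran from -0.21 to -0.11 in male control and from 0.04 to 0.26 in female control libraries, where the choice of members keeps the sexes apart. The lowest female library was female control 3, which also had the lowest read total (8.88 M). In it the other X-linked genes (-0.15) and the autosomal genes (-0.15) were low as well. For 60 members every male PDE library lay below every female PDE library, which held for 2.09% of all genes tested. In the controls this was so for 63 members, against 1.89% of all genes.

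**Figure D2:**
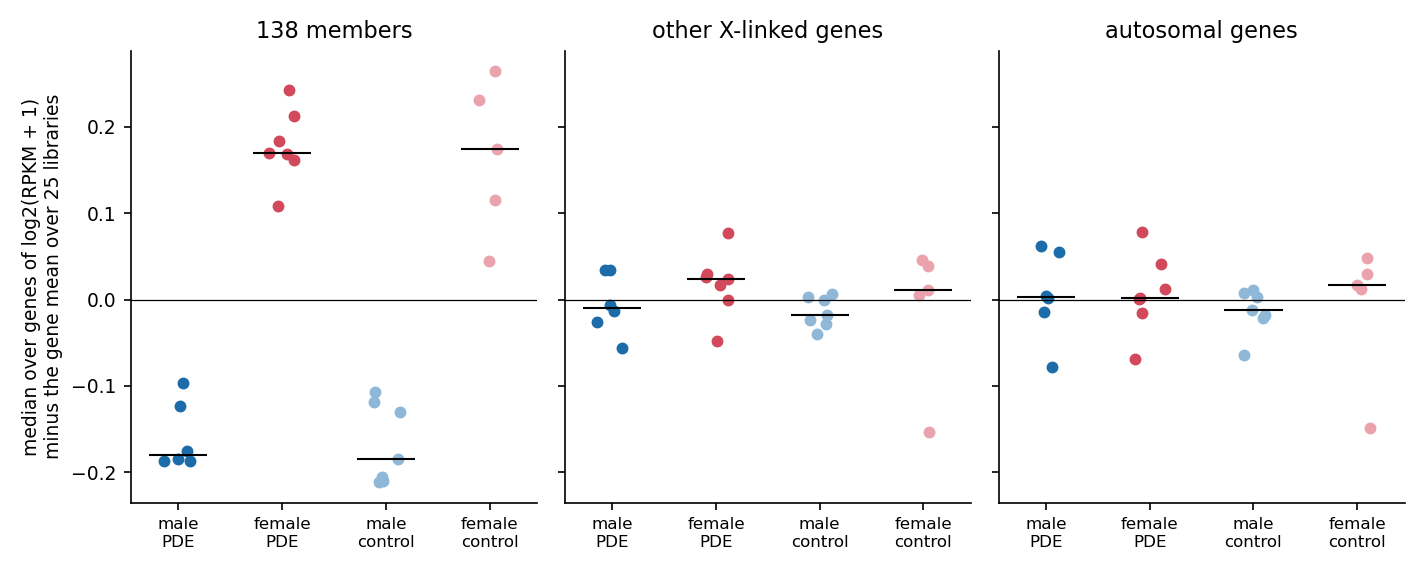
Each point is a library, placed at the median over genes of log2(RPKM + 1) minus the gene's mean over the 25 libraries, for the 138 members (left), the other X-linked protein-coding genes (middle) and the autosomal protein-coding genes (right). Lines mark group medians. Male and female libraries do not overlap for the members, while they overlap in the other panels.

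Inx7 and CG15308, both of low level, differed widely in both treatments. Inx7, which encodes a gap junction protein of the innexin family, lies at X:6991612-6993612 on the minus strand of the BDGP6 assembly. Its level was 0.725, 1.35 and 1.87 RPKM (lowest, median and highest) in male PDE libraries, against 3.49, 4.77 and 5.22 RPKM in female PDE libraries. In controls it was 0.81, 1.16 and 1.87 RPKM in males, against 3.29, 3.52, 3.88, 4.02 and 4.76 RPKM in the 5 females. The sexes did not overlap in either treatment, and the difference after PDE was -1.27 ± 0.11 (limma SE, adjusted p = 2.12e-08), with means of 1.34 RPKM in males and 4.61 RPKM in females.

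CG15308 was close to 0 in males. Its level ran from 0 to 0.146 RPKM in male PDE libraries, with 2 of them at 0, against 1.01 to 1.75 RPKM in female PDE libraries. In controls it ran from 0 to 0.0694 RPKM in males, and it was 1.03, 1.1, 1.19, 1.6 and 1.83 RPKM in females. The difference after PDE was -1.05 ± 0.08 (limma SE, adjusted p = 4.45e-09). As male levels lie under the pseudocount of 1, it understates the ratio. CG15308 reached 1 RPKM in 12 female and 0 male libraries. It thus entered through its female libraries alone, and its p-value is a description only. All 1227 bases of the gene (X:10217913-10219139) are also covered by the antisense RNA gene asRNA:CR45629, which had a difference of -1.06 after PDE. The sources used here do not state if reads were counted by strand, so that reads of this pair may not be separable.

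CG15459 was likewise low, with 0.171 to 0.576 RPKM in male PDE against 0.845 to 1.78 RPKM in female PDE libraries, and a difference of -0.73 ± 0.11 (adjusted p = 0.00012, limma). It reached 1 RPKM in 8 female and 0 male libraries, and passed the minimum only with its female PDE libraries. Its p-value thus rests in part on values that admitted it, and is a description only. CG18508, at a higher level, had 28.4, 33.3 and 34.4 RPKM (lowest, median and highest) in male PDE libraries, against 45.2, 50.7 and 58.5 RPKM in female PDE libraries. In controls CG18508 was at 29.6, 33.4 and 35.6 RPKM in males, against 47.6, 54.7, 54.9, 59.6 and 60.5 RPKM in females. The groups of opposite sex lie apart by more than 10 RPKM in both treatments, and the difference after PDE was -0.65 ± 0.06 (adjusted p = 1.28e-07, limma). CG12112 and CG3939, also among the 12 largest control differences, had differences of -0.63 and -0.50 after PDE (adjusted p = 2.99e-05 and 0.000366, limma).

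Of the 12 members with the largest control differences, 9 were called after PDE. The other three, CG2233, Bcat and CG7860, varied widely within a sex. CG2233 had the most negative control difference of all, -1.37, or -0.84 without female control 2, which was at 1075 RPKM, with 132, 162, 171 and 240 RPKM in the other female controls. After PDE it was at 45.2, 105.8 and 406.6 RPKM (lowest, median and highest) in males, against 81.3, 146 and 764 RPKM in females, with overlapping groups and an adjusted p of 0.472 (limma). Bcat, a branched-chain amino acid transaminase, was at 15.9 RPKM in female control 1 and between 2.63 and 4.17 RPKM in the other female controls, and after PDE its difference was -0.33 with an adjusted p of 0.8. CG7860 had a difference of -0.61 after PDE with an adjusted p of 0.162. CG3699 was the sole member with a positive difference after PDE, 0.11 ± 0.35 (adjusted p = 0.927), and had 7.64 RPKM in female control 2 against 0.762 to 2.65 RPKM in the other female controls.

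**Figure D3:**
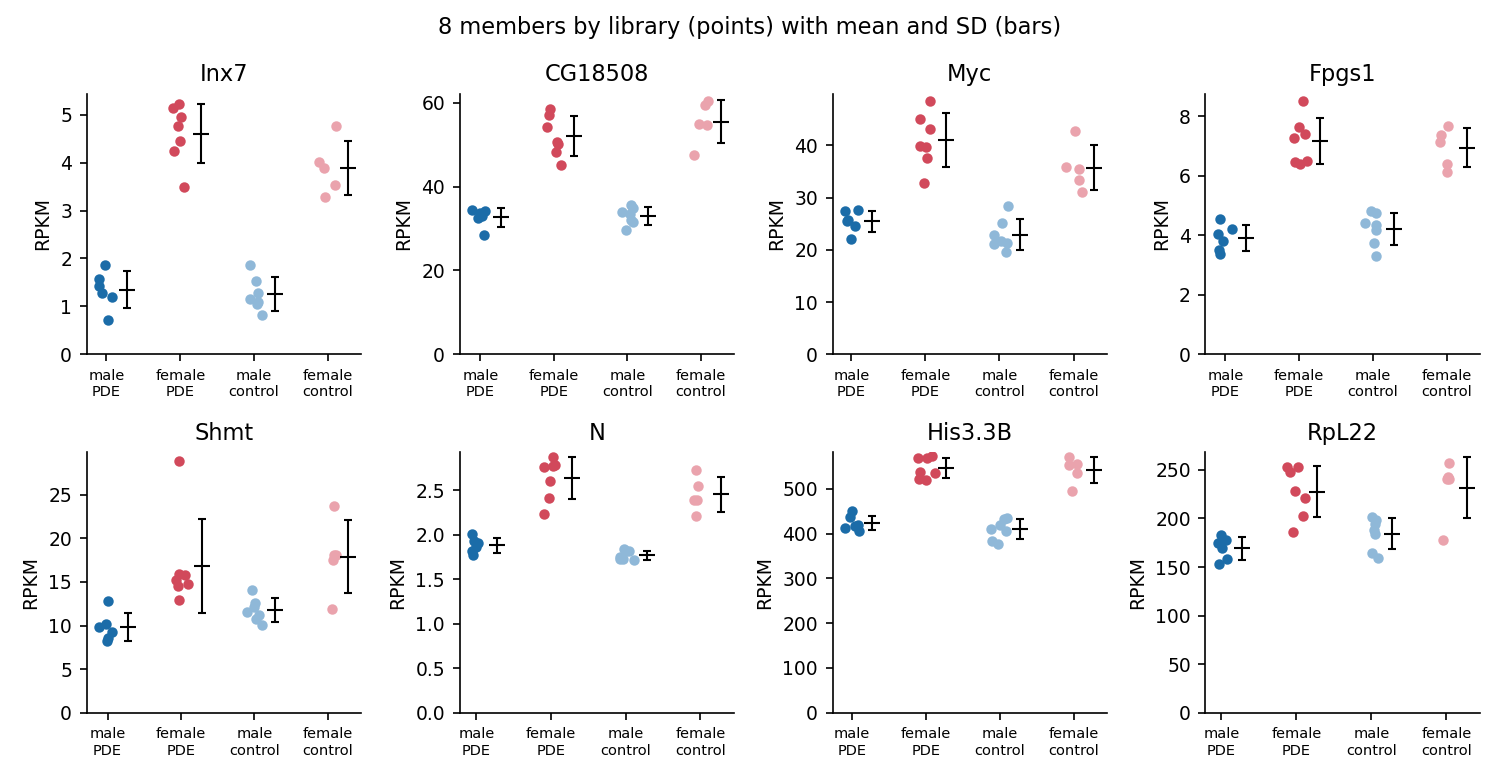
RPKM of 8 members in each library (points) with the mean and SD of the group (bars), for male PDE, female PDE, male control and female control libraries. For Inx7, CG18508, Myc, Fpgs1, N and His3.3B every male library lies below every female library within each treatment. In Shmt female PDE library 4 (28.9 RPKM) stands above the rest, and in RpL22 female control 3 (177.7 RPKM) lies among the males.

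The members were sorted by known function after their values had been seen, so counts by function describe these genes and no more. Of 12 transcription factors and cofactors 10 were called lower in males after PDE, with a median difference of -0.30 (range -0.67 to -0.23). Myc, the growth-promoting bHLH factor that drives ribosome production, was at 22.1, 25.6 and 27.6 RPKM (lowest, median and highest) in male PDE, against 32.8, 39.9 and 48.5 RPKM in female PDE libraries. In controls Myc was at 19.7, 21.6 and 28.3 RPKM in males, against 31.2, 33.4, 35.5, 35.9 and 42.7 RPKM in females. Its sexes did not overlap in either treatment, and the difference after PDE was -0.66 ± 0.09 (adjusted p = 1.58e-05, limma). The gene (X:3373159-3391697) lies on the same strand within lncRNA:CR44999, and reads of the 2 genes may not be separable.

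The other transcription factors included dmrt11E, of the family of doublesex, which averaged 2.91 ± 0.564 RPKM in male PDE and 5.27 ± 1.06 RPKM in female PDE libraries (SD, n = 6 and 7, adjusted p = 0.000557 with limma). The highest male PDE library for dmrt11E (3.5 RPKM) lay just above the lowest female PDE library (3.47 RPKM). Factors that shape neurons were also called, namely ct, a homeodomain protein of dendrite form (-0.51, adjusted p = 0.000185), acj6, a POU-domain protein of olfactory neuron identity (-0.31, 0.00128), and ewg, a factor needed in neurons (-0.38, 1.62e-05). In ct, acj6 and ewg, every male PDE library was lower than every female PDE library. The TEAD-family factor sd, a partner of Yorkie and Vestigial, had a difference of -0.29 (adjusted p = 0.000102), and the LIM-only protein gene Bx one of -0.26 (0.00419). HLH3B (-0.34) and btd (-0.27) had adjusted p-values of 0.0526 and 0.0906.

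Among 8 genes of chromatin and RNA polymerase II, 6 were called, with a median difference of -0.37. His3.3B, one of the genes for the replication-independent histone H3.3, was at 406.2, 417.6 and 449.9 RPKM (lowest, median and highest) in male PDE, against 519.9, 537.5 and 572.4 RPKM in female PDE libraries. In controls it was at 377.3, 410.8 and 434.5 RPKM in males, against 494.8, 535.9, 553.8, 555.7 and 570.8 RPKM in females. The sexes were apart in both treatments, and the difference after PDE was -0.37 ± 0.04 (adjusted p = 4.12e-06, limma). Bap60 and BCL7-like, both of the Brahma chromatin remodelling complex, had differences of -0.42 (adjusted p = 0.00033 and 6.01e-06), and Dsp1, an HMG-box protein and co-repressor of Dorsal, one of -0.38 (7.84e-05). Ssu72, a phosphatase of the RNA polymerase II tail, had a difference of -0.25 (adjusted p = 0.0113), while Polr2A, the largest subunit of the polymerase, had -0.19 with an adjusted p of 0.121 and Chrac-16 had -0.38 with an adjusted p of 0.0986.

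Of 7 genes of RNA, ribosome and protein synthesis 5 were called, with a median of -0.30. RpL22, a protein of the large ribosomal subunit, was at 152.9, 171.9 and 183.2 RPKM (lowest, median and highest) in male PDE, against 186.2, 228.4 and 253.4 RPKM in female PDE libraries. In controls it was at 159.5, 188.1 and 201.6 RPKM in males, against 177.7, 240.7, 240.7, 242.6 and 257.5 RPKM in females, where the lowest female lay among the males. The difference after PDE was -0.42 ± 0.08 (adjusted p = 0.00268, limma), or an adjusted p of 0.0645 without the 3 PDE libraries richest in fat body markers (female PDE 1, 2 and 6). The gene lncRNA:CR42491 overlaps 46.5% of RpL22 on the same strand, and their reads may not be separable. The RNA-binding protein gene Rnp4F followed with -0.32 (2.68e-05) and l(1)G0320 with -0.29 (0.00185), and Ddx56, a DEAD-box helicase gene, and Sec61gamma, of the protein channel of the endoplasmic reticulum, had adjusted p-values of 0.314 and 0.16.

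Of 12 genes of the cell surface, the synapse and signalling 11 were called, with a median of -0.29. N encodes the receptor Notch. It was at 1.77, 1.88 and 2.01 RPKM (lowest, median and highest) in male PDE, against 2.23, 2.76 and 2.87 RPKM in female PDE libraries. In controls N was at 1.72, 1.75 and 1.84 RPKM in males, against 2.21, 2.39, 2.39, 2.55 and 2.72 RPKM in females. The sexes were apart in both treatments, and the difference after PDE was -0.33 ± 0.05 (adjusted p = 3.83e-05, limma). Septin4, a filament-forming GTPase (-0.36, 7.19e-06), and LIMK1, the kinase that inactivates cofilin (-0.40, 6.14e-05), were lower to a like extent. So were nAChRalpha3, a nicotinic acetylcholine receptor subunit (-0.29, 0.00218), Ten-a, a teneurin of synaptic partner matching (-0.28, 0.00366), Scgdelta, of the dystrophin complex (-0.30, 0.00052), and the vesicle traffic GTPase Rab35 (-0.24, 0.000155). Another vesicle traffic GTPase gene, Rab39 (-0.29, 0.0201), and dpr8, of the immunoglobulin superfamily of neuronal surface proteins (-0.27, 0.0172), were called as well. The calcium sensor gene Frq1 (-0.21) had an adjusted p of 0.0626.

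Of 10 genes of metabolic enzymes 6 were called, with a median of -0.39. They included a pair of genes of folate-dependent one-carbon metabolism. Fpgs1, which adds glutamates to folates, was at 3.38, 3.94 and 4.55 RPKM (lowest, median and highest) in male PDE, against 6.41, 7.29 and 8.51 RPKM in female PDE libraries. In controls it was at 3.32, 4.36 and 4.8 RPKM in males, against 6.14, 6.4, 7.13, 7.37 and 7.69 RPKM in females. The sexes were apart in both treatments, and the difference after PDE was -0.73 ± 0.08 (adjusted p = 3.8e-07, limma). An antisense RNA gene, asRNA:CR45621, covers 93.4% of Fpgs1, and its reads cannot be told apart from those of Fpgs1.

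Shmt, which takes one-carbon units from serine, was at 8.28, 9.57 and 12.8 RPKM (lowest, median and highest) in male PDE, against 13, 15.2 and 28.9 RPKM in female PDE libraries. In controls it was at 10.1, 11.5 and 14.1 RPKM in males, against 11.9, 17.6, 18.1, 18.1 and 23.7 RPKM in females, where the lowest female lay among the males. The difference after PDE was -0.69 ± 0.14 (adjusted p = 0.00371, limma). The glucuronyltransferase gene GlcAT-I (-0.42, 0.00219), the hexosaminidase gene Hexo2 (-0.46, 0.0175) and the molybdenum cofactor gene cin (-0.28, 0.00501) were also called, while Agxt, Coq7 and regucalcin had adjusted p-values of 0.695, 0.538 and 0.26.

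The study asks about oxidative stress, and 4 members act on DNA damage or carbonyl stress. Parg, the enzyme that removes poly(ADP-ribose), was the sole one called, with a mean of 9.74 ± 0.774 RPKM in male PDE and 11.9 ± 0.926 RPKM in female PDE libraries (SD, n = 6 and 7, adjusted p = 0.00146 with limma). Ogg1, which removes oxidised guanine from DNA, had a difference of -0.25 (adjusted p = 0.163), the carbonyl reductase gene sni one of -0.28 (0.166), and cerv, of the SMC5/6 complex, one of -0.13 (0.43). The remaining 85 members, most of them known by a CG number alone, had a median of -0.32, and 46 were called. CG12994 (-0.37, adjusted p = 2.05e-06) and CG9123 (-0.49, 1.08e-05) were among the 12 members with the smallest p after PDE. CG12994 lies on the same strand within CG46464, and reads of the 2 genes may not be separable. Of 19 members with a name and in none of the function groups, 9 were called, namely Obp18a, stas, temp, hwt, CARPA, ATbp, lawc, Zdhhc8 and AdamTS-B. The adjusted p-values of Karl, AnxB11, psh, frma, Ldaf1, hdm, htk, sordd1, Gip and kairos lay between 0.0786 and 0.818.

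Obp18a, which encodes an odorant-binding protein, differed more after PDE than in the controls that chose it. It was at 32.3, 58.9 and 92.8 RPKM (lowest, median and highest) in male PDE, against 72.4, 123.1 and 183.7 RPKM in female PDE libraries. In controls it was at 35.4, 44.4 and 72.3 RPKM in males, against 43.9, 60.5, 72.5, 84.2 and 98.8 RPKM in females. The groups overlapped in both treatments, the difference after PDE was -1.05 ± 0.23 (adjusted p = 0.0065, limma, and 0.0532 without the same 3 libraries), and the change in the difference itself, -0.57, had an adjusted p of 0.999.

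Of the 85 calls, 71 stood with each of the 25 libraries left out in turn. The calls of Lint-1, AdamTS-B, Zdhhc8, lawc, CG12096, CG11590, disco, mei-P26, dpr14, CG11095, CG43736, c12.1, Tpst and Trf2, whose adjusted p-values lay between 0.0186 and 0.0476, were each lost without at least 1 library. For Trf2 this was male PDE 6 (adjusted p = 0.059), for Tpst male PDE 1 (0.0548), and for c12.1 male PDE 2 or male PDE 5 (up to 0.0681). The call of disco was lost without any of 7 libraries (female PDE 2, 3 and 6 and male PDE 1, 2, 3 and 5). The library whose absence removed the most calls was male PDE 1, with 11. On the same strand CG46311 overlaps 91.0% of Tpst, and reads of the 2 genes may not be separable.

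The members nearest to the threshold were CG42346, CG7322 and Ssu72, with control differences of -0.2528, -0.2539 and -0.2542. The genes just outside it were mamo, mahe and CG12576, with -0.2492, -0.2486 and -0.2475. After PDE their differences were -0.29, -0.37 and -0.25 inside and -0.18, -0.28 and -0.23 outside. Of these 6 genes, Ssu72 inside (adjusted p = 0.0113) and mahe outside (0.00721) were called.

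The 1119 other X-linked genes had a median difference of -0.04 after PDE, and 95 were called lower and 95 higher in males. The 6346 autosomal protein-coding genes had a median of 0, with 69 called lower and 31 higher. The X held a larger share of genes on both sides. After PDE 11.7% of X-linked genes differed by -0.25 or lower and 9.6% by 0.25 or higher, against 3.12% and 3.15% of autosomal genes. Among the autosomes the share at -0.25 or lower ran from 0% on chromosome 4 to 3.81% on arm 2R. In the controls the X-linked shares were 11.3% and 10.2%, against 3.64% and 3.89% of autosomal genes.

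**Figure D4:**
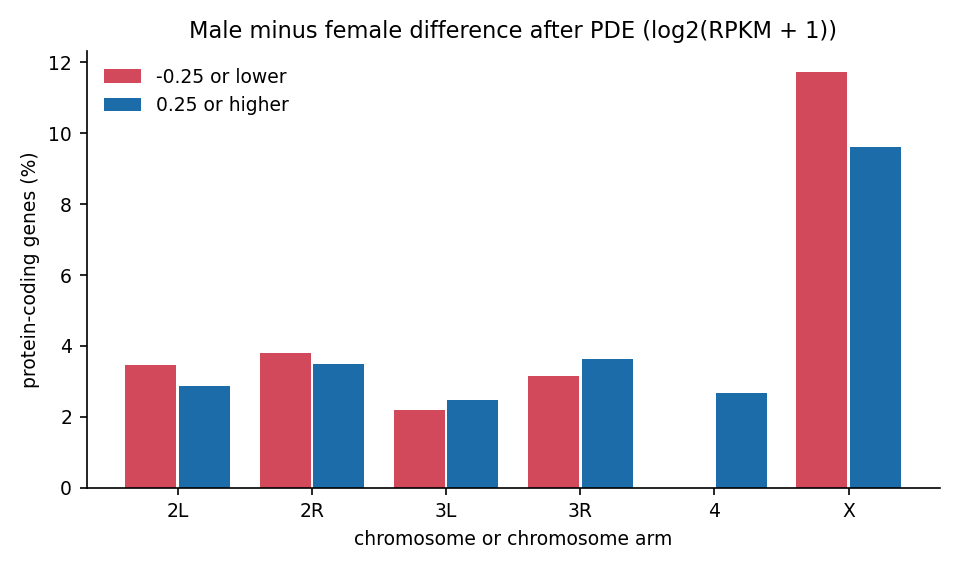
Share of protein-coding genes past the minimum (y axis, %) whose male minus female difference in mean log2(RPKM + 1) after PDE was -0.25 or lower (red) or 0.25 or higher (blue), by chromosome or chromosome arm. The X (11.7% and 9.6%) stands above every autosomal arm in both directions.

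The same threshold on autosomal genes in the controls gave 231 genes, 3.64% of them all. After PDE their median difference was -0.25, and 27 of the 231 were called lower in males. Of the X-linked members 104 of 138 were again at -0.25 or lower after PDE, and of these autosomal genes 118 of 231. The mirror threshold gave 128 X-linked genes higher in male controls, of which 68 were called higher after PDE, with a median of 0.33.

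Members were spread along the X. In windows of 2 Mb they made up between 6.93% (2 to 4 Mb) and 15.9% (8 to 10 Mb, 21 of 132 genes) of the measured genes, and no window was without one. The distance to the nearer of the roX1 and roX2 genes, from which the MSL complex is known to spread, had a median of 3010 kb for members and 2790 kb for other X-linked genes. Members had a median genomic span of 2660 bases and a median level of 8.88 RPKM over all libraries, against 3443 bases and 12.14 RPKM for other X-linked genes. These traits were not particular to the members. X-linked genes past the mirror threshold had medians of 2329 bases and 4.70 RPKM. Autosomal genes past the same threshold as the members had medians of 2008 bases and 4.06 RPKM. On the opposite strand, 50 members (36.2%) overlapped another annotated gene, as did 40% of other X-linked genes. The 78 members that overlap no other annotated gene had 44 calls.

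For most members the next measured gene on either side was not a member. For 32 members (23.2%) the next measured gene was also a member, in 16 pairs and no longer run, and 20% of other X-linked genes were next to a member. The 224 other genes directly next to a member had a median difference of -0.04 after PDE, with 8.04% called lower in males. Those 2 to 3 genes away had -0.06 (12.2%), those 4 to 6 away -0.03 (6.57%), and those 7 or more away -0.03 (6.93%). All 4 medians lay between -0.06 and -0.03, against -0.31 for the members. These other genes had missed the control threshold, so that smaller differences than in the members follow from the rule. The medians cannot show if neighbours share the difference.

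**Figure D5:**
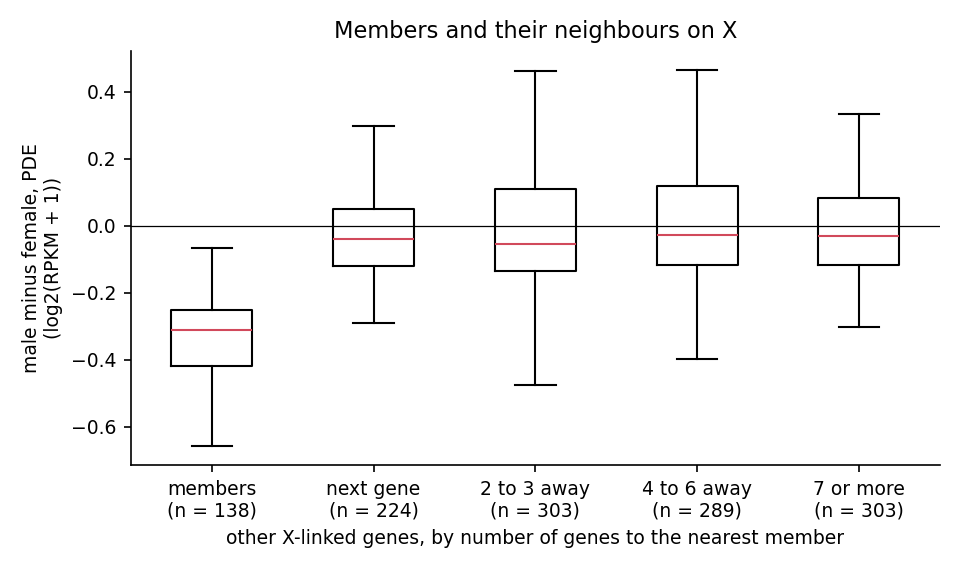
Male minus female difference in mean log2(RPKM + 1) after PDE (y axis) for the members and for other X-linked genes by the number of genes to the nearest member (x axis). Boxes span the quartiles with the median in red, and whiskers reach to 1.5 times the box or the last gene within it. The boxes of all 4 distances include 0, and the members' box lies below them, which the choice of members by the control difference builds in.

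Some of the 16 pairs join genes described above. N ends at X:3172221 and CG18508 starts at X:3172268 on the opposite strand, and the pair had differences of -0.33 and -0.65 after PDE. CG12236 (-0.35, adjusted p = 5.27e-07) and Shmt share 13 bases on opposite strands, and lawc and Trf2 share 2387 bases, which is 65.4% of lawc. The paralogs disco and disco-r, zinc-finger factors with a joint role in larval head and brain development, are also neighbours, with differences of -0.24 and -0.26 (adjusted p = 0.0327 and 0.00479). Of the remaining pairs, regucalcin and Chrac-16 share 151 bases on opposite strands, and neither was called. Both members were called in the pairs Septin4 and CG4678, CG8611 and CG12994, Zdhhc8 and BCL7-like, and Bap60 and CG12096. A single one was called in the pairs CG42376 and cin, RpL22 and CG13360, CG8128 and CG9240, and CG34331 and Rab35, and none in CG16756 and CG15784, CG32695 and CG1468, and htk and CG7322.

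Across the 25 libraries, the genes outside the set that followed the members' mean most closely were Plod on arm 3L (Pearson r = 0.95), Tmtc3 on 2R (0.93), CG3632 on X (0.90), Cht2 on 3L (0.89) and Coa7 on X (0.88). These values are a description over libraries of 4 groups, and genes chosen for r with a mean that separates the sexes differ by sex themselves. After PDE Tmtc3 had a male minus female difference of -0.71 and Plod one of -0.30 (adjusted p = 2.8e-10 and 7.59e-05, limma). CG3632 and Coa7, with control differences of -0.21 and -0.20, lay just short of the threshold.

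Of 28 genes of dosage compensation and sex determination, 26 were tested, and none is a member, Sxl having been left out by name. After PDE 3 were called higher in males, roX1, roX2 and msl-2, the last at 35.4 ± 1.7 RPKM in male PDE and 29.2 ± 1.1 RPKM in female PDE libraries (SD, n = 6 and 7, adjusted p = 0.000133 with limma). Sxl was the sole one called lower, at 31.1 ± 1.53 RPKM in male PDE and 49 ± 2.34 RPKM in female PDE libraries. The transcripts of msl-1, msl-3, mle and mof differed by -0.05, -0.12, 0.04 and 0.12, with adjusted p-values of 0.827, 0.475, 0.827 and 0.368. Among genes of sex determination tra had a difference of -0.20 (adjusted p = 0.0624), and fru 0.14 (0.262).

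PDE itself was not seen to alter the members in either sex. In males 0 of 138 members were called between PDE and control, against 0.175% of all genes, and in females 0, against 0.0751%. At an unadjusted p under 0.05 there were 5 members (3.62%) in males, against 3.99% of all genes, and 12 (8.7%) in females, against 4.8% of all genes, and limma voom on recovered reads gave 6 and 12, with 0 called in both. The control libraries of these comparisons also chose the members, so that some return towards equal levels is built in. The median change was 0.02 in males and -0.01 in females. The male change minus the female change was called for 0 members and 0.0% of all genes, with 1 member (0.725%, against 2.22% of all genes) under an unadjusted p of 0.05, or 3 with voom, and a median of 0.02.

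The members with the smallest p-values for PDE did not pass the threshold. CG15784 was at 0.865, 1.78 and 2.47 RPKM (lowest, median and highest) in male PDE and 0.751, 0.963 and 1.69 RPKM in male control libraries. In females it was at 2.27, 2.61 and 4.32 RPKM after PDE, against 0.972, 1.33, 1.45, 1.69 and 2.94 RPKM in controls. Its changes of 0.36 in males and 0.56 in females had adjusted p-values of 1 and 0.528. CG1812 had changes of -0.13 in males and -0.15 in females (adjusted p = 0.852 and 0.687), CG10970 one of -0.30 in males (adjusted p = 1), and Obp18a one of 0.77 in females (0.599).

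Markers of the fat body, the organ that surrounds the brain in the head and makes yolk proteins in females, were also summed. The summed level of 14 such genes was 76.84, 130.6 and 299.7 RPKM (lowest, median and highest) in male PDE, against 219.5, 652.7 and 2618 RPKM in female PDE libraries (exact two-sided permutation p = 0.00233, 0.0105 adjusted over 9 lists). Most of this sum in females came from the yolk genes Yp1, Yp2 and Yp3. Their means were 330.1, 207.7 and 137.6 RPKM in female PDE, against 7.718, 4.419 and 4.665 RPKM in male PDE libraries. As yolk proteins are made in females, this difference was given by the list and does not measure the amount of fat body. Of the 12 tested genes of the list Yp1, Yp2, Yp3 and fit were called lower in males and Obp99b higher, and the other 7, apolpp and FASN1 among them, were not called. None of the members belongs to this or any other marker list. This says little, as few listed genes are X-linked and Yp1, Yp2 and Yp3 were left out by name. Without the 3 PDE libraries richest in these markers 58 members were called, all of them among the 85, and the median difference was -0.30, against -0.31 with all libraries. That fit held 4 female PDE libraries, and over all genes it called 141 lower in males, against 261. As the ranking of libraries rests largely on yolk genes, the part of fat body RNA in the members' difference was not tested. Summed haemocyte markers had medians of 14.57 RPKM in male PDE and 18.79 RPKM in female PDE libraries (exact permutation p = 0.2145). Their control medians were 12.21 RPKM in males and 18.36 RPKM in females (exact permutation p = 0.048, unadjusted). Muscle sums had medians of 14.92 RPKM in male PDE and 6.323 RPKM in female PDE libraries (exact permutation p = 0.0653). The part of these cells in the members' difference was not tested. In whole brains fewer cells of a type and less RNA per cell cannot be told apart. Summed markers of the female germline ran from 30.65 to 37.69 RPKM in male PDE and from 33.08 to 39.04 RPKM in female PDE libraries (exact permutation p = 0.155). In controls they ran from 31.77 to 34.62 RPKM in males and from 33.7 to 37.17 RPKM in females (exact permutation p = 0.0126, unadjusted). Only 2 of these 9 genes passed the minimum. Most of the sum was gus, with means of 32.48 RPKM in male PDE and 34.22 RPKM in female PDE libraries, so that it hardly measures germline RNA. Summed markers of the retina ran from 117.2 to 8387 RPKM in male PDE and from 88.01 to 1900 RPKM in female PDE libraries (exact permutation p = 0.353).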

How the data were processed

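Brain RNA was purified on the Maxwell RSC system (simplyRNA) and libraries were prepared by SMART-Seq mRNA LP, per the labels' protocols. The submitters' processing notes list STAR and dm6, and the sources used here do not give the read counter, how it treated strand, or its annotation. The authors deposited a table of RPKM values for 16060 genes, of which 15997 matched the Ensembl BDGP6.54 annotation (release 115). Values were whole multiples of 1 read within a tolerance of 0.001 for 13571 genes, which gave library totals, and for 85.8% of genes with introns the length in use was the genomic span, so that long genes have low RPKM.

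Values were analysed as log2(RPKM + 1) with limma 3.58.1 in R 4.3.3 (1 coefficient per group, 25 libraries, moderated errors with a trend, Benjamini-Hochberg adjustment over the 7985 genes that reached 1 RPKM in 5 or more libraries). The pseudocount of 1 shrinks differences of low genes. Calls are at an adjusted p under 0.05. Marker lists were compared by exact permutation. The members, gene lists and tests were chosen with earlier results of these data known. Members were named if they were among the 12 with the largest control difference, the 12 with the smallest p after PDE, the 3 nearest to the threshold, or the 3 with the smallest p for PDE in each sex, if they were of opposite sign after PDE, lay next to another member or had a name other than a CG number. Some called members with a CG number are counted and not named. Alternatives changed the pseudocount, minimum, scaling, libraries, weights, block and threshold. Counting error depends on depth, and the lowest total was 8.88 M reads, in female control 3, one of the libraries that chose the members. Promoter sequences were not analysed here. Tables, permutations and figures were made in Python 3.11.15 (pandas 2.3.3, numpy 2.4.6, matplotlib 3.10.9, scipy 1.17.1).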

Additional observations from a re-analysis of the deposited data

Results flagged for a closer look

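In 36 of the members named in the text, 144 sets of values (a gene in a group) were screened for a library whose gap to its nearest neighbour was too wide for the group's range, and 20 were found where chance gives about 1 in 20. Female control 1 was the high library in 6 of these groups. It had 15.92 RPKM of Bcat (next 4.172), 15.99 of CG7860 (next 6.326), 36.29 of CG12236 (next 33.76), 30.96 of ewg (next 25.98), 11.3 of sd (next 9.787) and 17.28 of lawc (next 14.4).

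Female control 2 had 1075 RPKM of CG2233 (next 239.8) and 7.635 RPKM of CG3699 (next 2.649). Female control 3 was low in RpL22, at 177.7 RPKM (next 240.7), and female control 4 was low in Parg, at 10.71 RPKM (next 12.22).

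After PDE, male PDE 6 had 406.6 RPKM of CG2233 (next 108.5) and was low in ewg, at 18.31 RPKM (next 20.15). Male PDE 5 was low in CG18508, at 28.4 RPKM (next 32.47), and male PDE 2 was low in sni, at 4.511 RPKM (next 5.781). Female PDE 4 had 28.86 RPKM of Shmt (next 15.87), female PDE 6 had 13.78 RPKM of Parg (next 12.05), and female PDE 7 had 1.752 RPKM of CG15308 (next 1.309).

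Among male controls, library 2 was low in Bcat, at 1.53 RPKM (next 1.913), library 4 was low in LIMK1, at 21.09 RPKM (next 24), and library 6 was high in CG3699, at 5.436 RPKM (next 1.654).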

How the results depend on the processing

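The count of 85 members called lower in males after PDE ran from 74 to 91 with single libraries left out, and their median difference from -0.3314 to -0.3031. It was 86 and 85 with pseudocounts of 0.1 and 5, 80 without a minimum, 77 after quantile normalization, 79 with autosomal median centring, 83 in a fit of the PDE libraries alone, 98 with array weights, 80 with voom on recovered reads and 75 without the 5 libraries richest in retina markers. Of the 85, 53 were called under all 36 settings tried. A pseudocount of 5 moved the median to -0.2124, since it shrinks low genes. Over all genes 66.4% of calls were lower in males (261 lower, 132 higher), against 55.8% after quantile normalization (217 and 172) and 55.4% with autosomal centring (216 and 174).

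In the controls 93 members were called, 60 without those 5 retina-rich libraries and 70 to 97 with single libraries left out. The PDE contrasts and the male minus female change had 0 called members with each library left out. A threshold of -0.5 gave 19 members with a median of -0.6505 after PDE and one of -0.15 gave 325 with -0.2177. With single controls left out the rule gave 122 (without female control 1) to 172 members (without female control 3), with medians from -0.3309 to -0.2853. The rule with a pseudocount of 0.1 gave 177 members, and a minimum of 5 RPKM gave 96.

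The difference of CG3699 after PDE (0.11) became -0.0024 with array weights and ran from -0.0654 (without male PDE 6) to 0.2799 with single libraries left out, and that of Bcat (-0.33) ran from -0.5324 to 0.0061 (without female PDE 7). In 36 members followed singly under every setting, a call was lost in 17 cases and gained in 1. The members whose calls depend on a single library, most of which are not among these 36, are named in the report.

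Same-numbered libraries had a mean correlation of deviations of 0.015 over 34 pairs, against -0.003 over 199 others. In 5 of 6 pairs of male and female PDE libraries it was above 0.1, with a range from -0.345 to 0.35, and 1 of 6 male PDE libraries correlated best with the female PDE library of its own number. As 1 pair fell short, the numbers were not taken as pairs. With the replicate number as a block 89 members were called, 84 of them among the 85, and 0 in the PDE contrasts of either sex.

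Without the members that overlap another annotated gene, 44 of 78 were called. Depth limits the low genes most, CG15308 with 0 RPKM in 3 male libraries among them.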
